A study of Homo sapiens with 6 samples.

Results

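The HOX clusters are the groups of homeobox genes named HOXA, HOXB, HOXC and HOXD, and they are described here together with the noncoding RNAs transcribed from among them. Members were the genes of the deposited count table whose symbol begins with HOXA, HOXB, HOXC or HOXD, antisense genes included, and HOTAIRM1, HOTAIR and HOTTIP. The rule found 55 members among 63677 genes, of which 39 are protein-coding HOX genes and 16 are noncoding. The HOXA cluster held 17 members, HOXB 14, HOXC 14 and HOXD 10.

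Poly(A) RNA of HEK293 cells, an established line derived from human embryonic kidney, was sequenced 48 hours after siRNA transfection. The siRAB3IP group received an siRNA against circRAB3IP, the siCAMSAP1 group received an siRNA against circCAMSAP1, and the control group received a non-targeting siRNA (NTC in the labels), with 2 libraries in each group. The circular RNAs come from the genes RAB3IP and CAMSAP1, and all groups share the cell line and the transfection reagent. Whether replicate libraries stem from different cultures is not in the labels, and a p-value here reflects library-to-library scatter that could be purely technical.

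The names of the groups are those of the authors' deposited tables of normalized counts, and they do not match the sample titles. For 4 of the 6 libraries the deposited table and the title give different groups. Grouped by title instead, edgeR's quasi-likelihood test called 0 of 53 members and 0 of 22331 genes in each comparison. At an unadjusted p under 0.05 that grouping gave 0, 0 and 1 members, and 330, 437 and 456 genes, for siRAB3IP against control, siCAMSAP1 against control and siRAB3IP against siCAMSAP1. Which names are right was not tested, and every direction given here rests on the names in the deposited tables.

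HOX genes encode transcription factors that give cells their position along the head-to-tail axis of the embryo and along the limbs. Within each cluster the order of the genes on the chromosome follows the order in which they are switched on along that axis, and genes with the same number in different clusters are paralogs that descend from one ancestral gene. HOX proteins bind DNA together with TALE partners of the PBX and MEIS families, Polycomb complexes keep the clusters silent where they are not used, and Trithorax complexes keep them active where they are. Adult cells and cell lines often keep part of the pattern of the tissue they came from. In hg19, the HOXB members chromosome 17 from 46605888 to 46806540, the HOXC members chromosome 12 from 54329112 to 54449813 and the HOXD members chromosome 2 from 176957619 to 177055688.

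Each library held 37379217 to 39637733 fragments assigned to genes, and the members together took 0.0260% to 0.0362% of them. The host genes were not called in either knockdown by edgeR. RAB3IP had 68.0 and 66.6 CPM (fragments of the gene scaled to the size of the library) in siRAB3IP libraries, against 57.4 and 62.4 CPM in control. CAMSAP1 had 139 and 138 CPM in siCAMSAP1 libraries, against 138 and 136 CPM in control, and since these are linear mRNAs the values check neither the knockdown of the circles nor the labels. Of 8 HEK293 markers, 6 had a matching symbol, and their summed level was 1006 to 1276 CPM in siRAB3IP, 1268 to 1286 CPM in siCAMSAP1 and 1495 to 1595 CPM in control libraries. Of the 4 markers tested, 2 were called lower in siRAB3IP than in control, 1 was called higher and the other was not called. Over all genes tested, 5.38% were called lower and 6.58% higher. The lower markers were KRT8 and KRT18, epithelial keratins, with log2 fold changes of -0.56 and -0.72. INA, a neuronal intermediate filament, was called higher at 1.51, and PAX2 and NEFM were too low to test. Markers of other cell types stayed low, with summed levels in siRAB3IP, siCAMSAP1 and control libraries of 9.19 to 13.8, 13.03 to 19.9 and 14.4 to 17.5 CPM for fibroblasts, 5.23 to 7.82, 3.58 to 3.93 and 3.21 to 3.53 CPM for endothelium, 0.396 to 0.479, 0.438 to 0.736 and 0.218 to 0.347 CPM for blood, and at most 0.103 CPM in any library for liver. VWF of endothelium was called higher and COL1A1 of fibroblasts lower in siRAB3IP than in control. PECAM1 of endothelium was listed at 0, but its symbol matched only a patch sequence, so that value does not measure its expression. The part of these shifts in the results on HOX genes was not tested.

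HEK293 cells transcribed all 4 clusters at low levels. Of the 55 members, 34 averaged at least 1 FPKM (fragments scaled to exon length and library size, computed here from the counts and exon lengths of the deposited table) over the 6 libraries, 8 reached 5 and 3 reached 10. Those at 1 FPKM or more were 11 of 17 in HOXA, 9 of 14 in HOXB, 6 of 14 in HOXC and 8 of 10 in HOXD. HOXB1, an anterior hindbrain gene, and HOXC12 had 1 fragment each over all libraries and were not tested, which left 53 members.

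The most abundant members by length, averaged over the 6 libraries, were HOXD13, HOXB7 and HOTAIRM1. In control libraries alone HOTAIRM1 came first, with a mean of 14.4 FPKM, against 12.2 for HOXD13 and 11.5 for HOXB7. HOXD13, which shapes the digits, ranged from 11.9 to 13.9 FPKM over the 6 libraries and averaged 12.8. HOXB7, a trunk gene, ranged from 11.1 to 13.5 and averaged 12.2, so its range overlaps that of HOXD13. HOTAIRM1, a noncoding RNA started next to HOXA2, averaged 10.4 FPKM but spread from 6.29 to 15.6, the widest range of these 3, and it was the most abundant HOXA member. Next in HOXA was HOXA5, which patterns the thorax and lung, at 5.22 to 11.4 FPKM, though per unshared base HOXA10-AS takes that place. The second members of the other clusters were HOXB9 at 7.47 to 8.76, HOXD10 at 6.66 to 8.49 and HOXC13, which controls hair and nail keratins, at 1.78 to 4.11 FPKM, below HOXC9 at 3.68 to 6.73 FPKM in the same cluster. HOTAIR, a HOXC antisense RNA known for binding Polycomb proteins, ranged from 0.562 to 1.22 FPKM, and HOTTIP, transcribed next to HOXA13 and known for binding the Trithorax partner WDR5, from 0.0527 to 0.159 FPKM.

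Counting without strand limits how far neighbouring members can be told apart. Of the 55 members, 39 share exonic bases with another gene and 20 share over 20% of them. Fragments that touch exons of more than 1 gene are left out by the counting command in the file header, and elsewhere a fragment of an antisense partner cannot be told from one of the gene. Per unshared base, HOXD4 averaged 7.81 FPKM in place of 1.52, since 80.5% of its exonic bases lie in HOXD3. HOXA10-AS averaged 9.29 in place of 3.51 FPKM, with 62.3% of its exonic bases shared with HOXA10, HOXA9 and a further gene. Among the 53 tested members, 1 of 19 with over 20% shared bases and 10 of 34 with less were called lower in siRAB3IP than in control. Over all genes tested, 5.38% were called lower in that comparison, so the 1 of 19 is near that share.

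**Figure D1:**
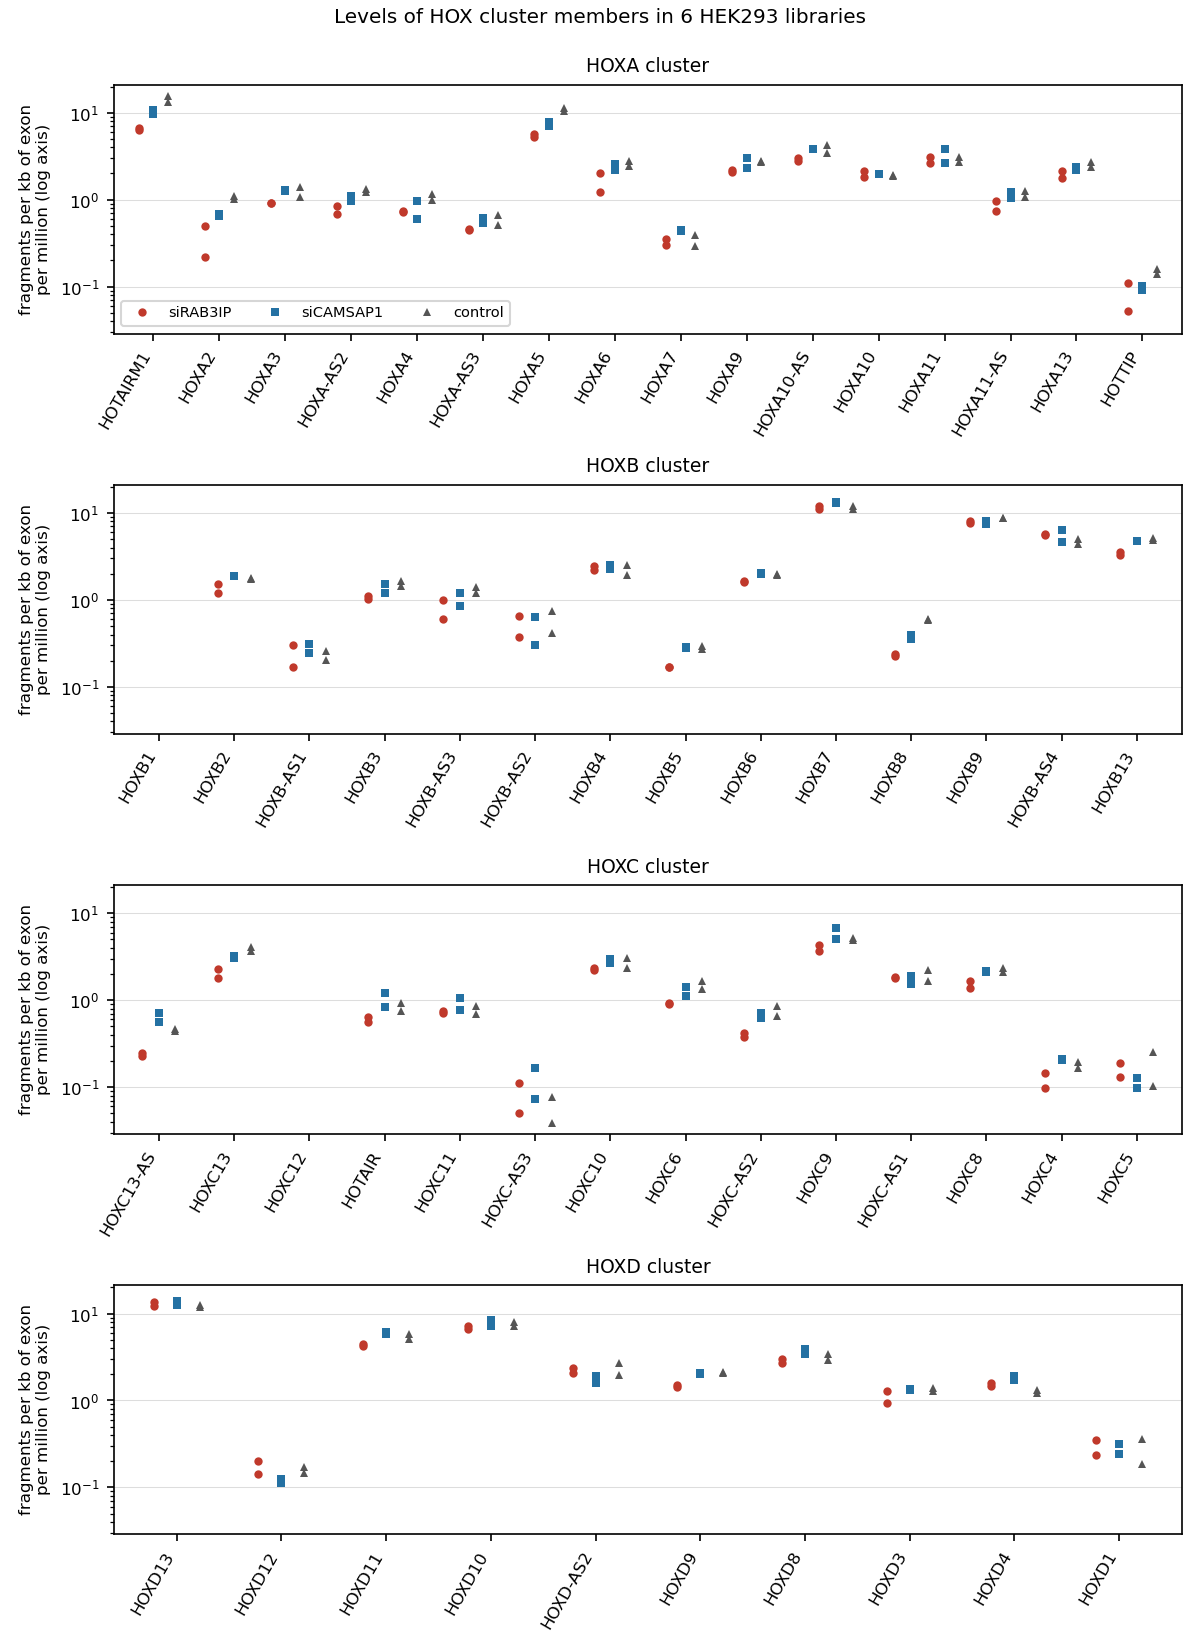
Level of the members shown in each of the 6 libraries, in FPKM on a log axis, with members in chromosomal order and 1 panel per cluster. Circles are siRAB3IP, squares siCAMSAP1 and triangles control libraries. HOXB1 and HOXC12, with 1 fragment each, have no points. HOXD13, at 11.9 to 13.9, has the highest mean over the 6 libraries, and HOTAIRM1 the highest in control libraries.

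The siRAB3IP libraries were set against control to ask what the knockdown of circRAB3IP does to gene expression. In HOXA, HOXB and HOXC, 11 members were lower in siRAB3IP and none was higher. The 11 were HOTAIRM1, HOXA5, HOXA2 and HOXA-AS2 of HOXA, HOXB8, HOXB13 and HOXB3 of HOXB, and HOXC13, HOXC-AS2, HOXC6 and HOXC8 of HOXC. That is 11 of 53 tested members called lower, where the share over all genes tested was 5.38%, and 0 of 53 called higher, where the share was 6.58%. A member was called when the Benjamini-Hochberg adjusted p of edgeR's quasi-likelihood test, adjusted over 22331 genes, was under 0.05. At an unadjusted p under 0.05, 23 members were lower and 0 higher, where 12.3% of all genes were lower and 13.5% higher, and neither DESeq2 nor limma-voom called any member higher. The count of 11 was 3 without siRAB3IP replicate 1 and 7 without siRAB3IP replicate 2. In bulk libraries, fewer cells that express a gene and less RNA per cell cannot be told apart.

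Taking called and uncalled members, most lay on the low side. The median log2 fold change of the 53 members was -0.37, against -0.01 over all genes tested, and 43 members (81.1%) were below 0, against 51.6% of all genes. Both siRAB3IP libraries were below both control libraries for 34 members, where 27.8% of all genes were, and above both for 2, HOXB-AS4 and HOXD4, where 25.9% of all genes were. Neither HOXB-AS4 nor HOXD4 was called, with log2 fold changes of 0.27 ± 0.20 (SE) and 0.28 ± 0.22. The fold changes ranged from -1.55 for HOXA2 to 0.49 for HOXC-AS3.

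Set side by side, the clusters gave 4 of 17 tested members called lower in HOXA, 3 of 13 in HOXB, 4 of 13 in HOXC and 0 of 10 in HOXD. Over all genes tested edgeR called 5.38% lower, the share for every edgeR count in this paragraph, and 0 of 10 is near it. The clusters' median log2 fold changes were -0.43, -0.27, -0.49 and -0.10. In HOXD, 2 of 10 members had an unadjusted p under 0.05, HOXD9 and HOXD11, both lower, where 12.3% of all genes were lower. DESeq2 and limma-voom also called 0 HOXD members. By DESeq2 the calls were 4 in HOXA, 2 in HOXB and 2 in HOXC, and by limma-voom 4, 3 and 3, all lower. Shares of all genes called by DESeq2 or limma-voom are not given for this comparison, so their counts are not read against a background. A difference between clusters was not tested. By position in the cluster, 2 of 7 members with paralog numbers 1 to 3, 4 of 15 with 4 to 8 and 2 of 15 with 9 to 13 were called lower, with medians of -0.43, -0.54 and -0.24. Protein-coding and noncoding members were called at 8 of 37 and 3 of 16, with medians of -0.35 and -0.42.

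The summed level of HOXA was 69.6 and 75.2 CPM in siRAB3IP libraries, 98.1 and 87.7 CPM in siCAMSAP1 libraries and 112 and 107 CPM in control libraries. Its siRAB3IP mean was 66.0% of the control mean and its siCAMSAP1 mean 84.7%. HOXC summed to 32.8 and 32.1 CPM in siRAB3IP, 46.5 and 45.5 CPM in siCAMSAP1 and 44.4 and 48.2 CPM in control. The siRAB3IP mean of HOXC was thus 70.0% of control, while its siCAMSAP1 mean was 99.2%. HOXB stood at 84.8% and HOXD at 92.9% of control in siRAB3IP, and at 98.8% and 106.5% in siCAMSAP1. For each cluster, both siRAB3IP libraries lay below both control libraries. The 13 HOXA members that were not called summed to 46.7 and 50.7 CPM in siRAB3IP against 61.7 and 59.4 CPM in control, a split that follows the calls and is a description only.

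**Figure D2:**
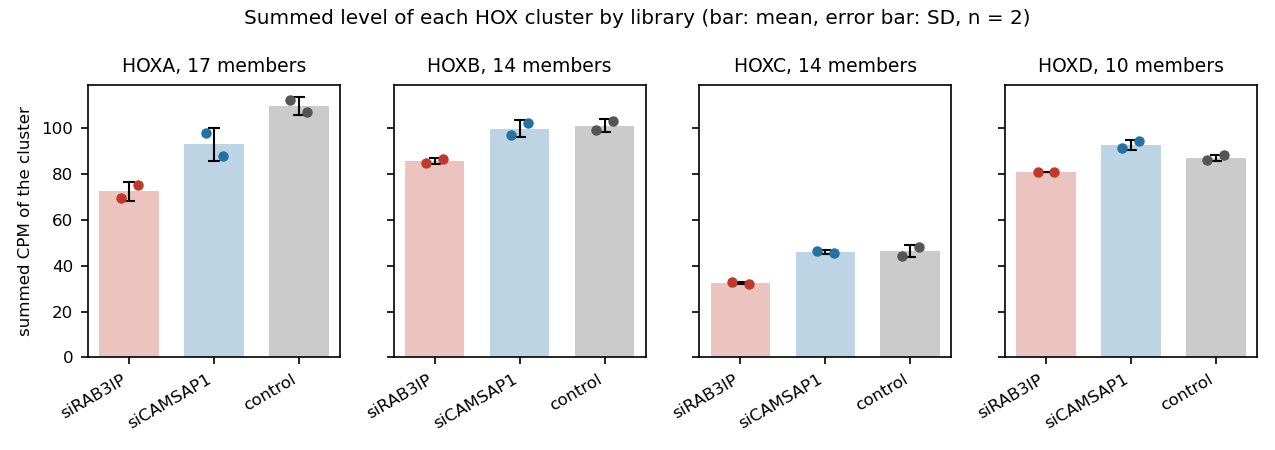
Summed CPM of the members of each cluster, with siRAB3IP, siCAMSAP1 and control from left to right. Points are libraries, bars are means and error bars are SD over 2 libraries. The siRAB3IP mean is 66.0%, 84.8%, 70.0% and 92.9% of the control mean in HOXA, HOXB, HOXC and HOXD.

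In the HOXA cluster, HOTAIRM1 and HOXA5 had the lowest adjusted p. HOTAIRM1 is a noncoding RNA first described in myeloid cells, where it affects nearby HOXA genes (hg19 chromosome 7, 27135266 to 27139884). It had 9.88 and 9.42 CPM in siRAB3IP libraries, 16.1 and 14.5 CPM in siCAMSAP1 libraries and 23.4 and 19.7 CPM in control libraries. The 3 groups did not overlap, with siCAMSAP1 between siRAB3IP and control. Its log2 fold change in siRAB3IP was -1.16 ± 0.12 (SE), with an adjusted p of 9.54e-05 by edgeR, and the adjusted p stayed between 7.24e-18 and 0.00157 over the 15 alternatives other than the grouping by title. HOTAIRM1 shares 12.7% of its exonic bases with genes on the opposite strand, mainly HOXA2.

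HOXA5, whose exons overlap no other gene (27180671 to 27183287), had 8.90 and 9.60 CPM in siRAB3IP, 13.2 and 11.9 CPM in siCAMSAP1 and 18.1 and 19.5 CPM in control. Its groups were ordered as for HOTAIRM1 and did not overlap. The log2 fold change was -1.02 ± 0.12 (SE) with an adjusted p of 0.000166 by edgeR, between 6.31e-13 and 0.00228 over the same alternatives.

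HOXA2 patterns the hindbrain and the second pharyngeal arch (27139721 to 27142430). It was a rare transcript, at 0.449 and 1.04 CPM in siRAB3IP, 1.34 and 1.40 CPM in siCAMSAP1 and 2.27 and 2.10 CPM in control, which is 17 and 39 fragments in the siRAB3IP libraries. Its siRAB3IP libraries differed by more than those of the other groups, and its log2 fold change of -1.55 ± 0.33 was the most negative of the tested members with all 6 libraries (edgeR, adjusted p 0.00828). Without siRAB3IP replicate 1 it was -1.07, against -1.32 for HOXB8 and -1.19 for HOTAIRM1 in the same fit, so that rank rests on 1 library. HOXA-AS2, antisense to HOXA3 and HOXA4 (27147396 to 27173921), had 3.65 and 4.44 CPM in siRAB3IP, 5.85 and 5.15 CPM in siCAMSAP1 and 6.92 and 6.38 CPM in control, a log2 fold change of -0.72 ± 0.17 (edgeR, adjusted p 0.0134). Both calls were lost without siRAB3IP replicate 1, where the adjusted p was 0.0710 for HOXA2 and 0.117 for HOXA-AS2. The adjusted p of HOXA2 ranged from 2.61e-05 to 0.0710 over 14 alternatives and that of HOXA-AS2 from 0.000612 to 0.117 over 15.

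Among the 14 members called in any comparison, RefSeq promoter windows (GRCh38.p14, 250 bases before to 50 after the transcript start) were matched for 3, HOXA2, HOXA-AS2 and HOXD11, and the windows of the lower HOXA members are shown. The window of HOXA2 lies at chr7:27102634-27102933 on the minus strand and that of HOXA-AS2 at chr7:27121669-27121968 on the plus strand. Capitals mark matches, on either strand, to 5 motifs. The TATA box was searched as TATAAA and the CCAAT box as CCAAT. The composite site of PBX with HOX was searched as TGATNNAT. The homeodomain core was searched as TAATTA. The nuclear receptor half-site was searched as AGGTCA.
HOXA2: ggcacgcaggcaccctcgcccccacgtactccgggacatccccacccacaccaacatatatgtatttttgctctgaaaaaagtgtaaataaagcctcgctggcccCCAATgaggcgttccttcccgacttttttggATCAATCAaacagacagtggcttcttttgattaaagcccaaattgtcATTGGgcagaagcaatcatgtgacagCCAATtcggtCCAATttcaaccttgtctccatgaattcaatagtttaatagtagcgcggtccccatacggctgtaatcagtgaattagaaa
HOXA-AS2: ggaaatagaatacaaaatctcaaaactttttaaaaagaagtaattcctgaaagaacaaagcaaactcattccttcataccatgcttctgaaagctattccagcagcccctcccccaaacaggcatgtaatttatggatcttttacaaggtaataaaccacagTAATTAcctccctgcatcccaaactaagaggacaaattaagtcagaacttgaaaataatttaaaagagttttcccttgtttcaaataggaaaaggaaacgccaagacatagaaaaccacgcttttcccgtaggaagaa
In HOXA2 the capitals are 4 CCAAT boxes, which lie 145, 67, 41 and 31 bases before the start, and 1 PBX and HOX site that starts 114 bases before it, read on the reverse strand. In HOXA-AS2 they are 1 TAATTA core 88 bases before the start, in a window with 36.0% G and C, against a median of 58.7% over all windows. Of 35116 windows, 34.6% hold CCAAT, 7.40% TGATNNAT, 4.84% TAATTA, 11.5% TATAAA and 13.8% AGGTCA. The 37 windows of 29 members include several starts of some genes, and windows that members share in whole or in part. The same site can therefore count more than once. Of the 37 windows, 24 hold CCAAT, 4 TGATNNAT, 3 TAATTA, 6 TATAAA and 0 AGGTCA. These matches describe the letters of the windows and were not tested for binding.

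The remaining HOXA members were not called in siRAB3IP against control. Towards the far end of the cluster, HOXA10 and HOXA11, which pattern the uterus and the forelimb, stood at 0.05 ± 0.14 and -0.01 ± 0.18 in siRAB3IP. HOXA13 at the end of the cluster stood at -0.38 ± 0.13, with both siRAB3IP libraries below both control libraries and an edgeR adjusted p of 0.0822. HOTTIP had 0.264 and 0.559 CPM in siRAB3IP, 0.515 and 0.457 CPM in siCAMSAP1 and 0.695 and 0.798 CPM in control, a log2 fold change of -0.86 ± 0.43 that was not called (edgeR, adjusted p 0.230). In all, 14 of 17 HOXA members had both siRAB3IP libraries below both control libraries, where 27.8% of all genes did.

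**Figure D3:**
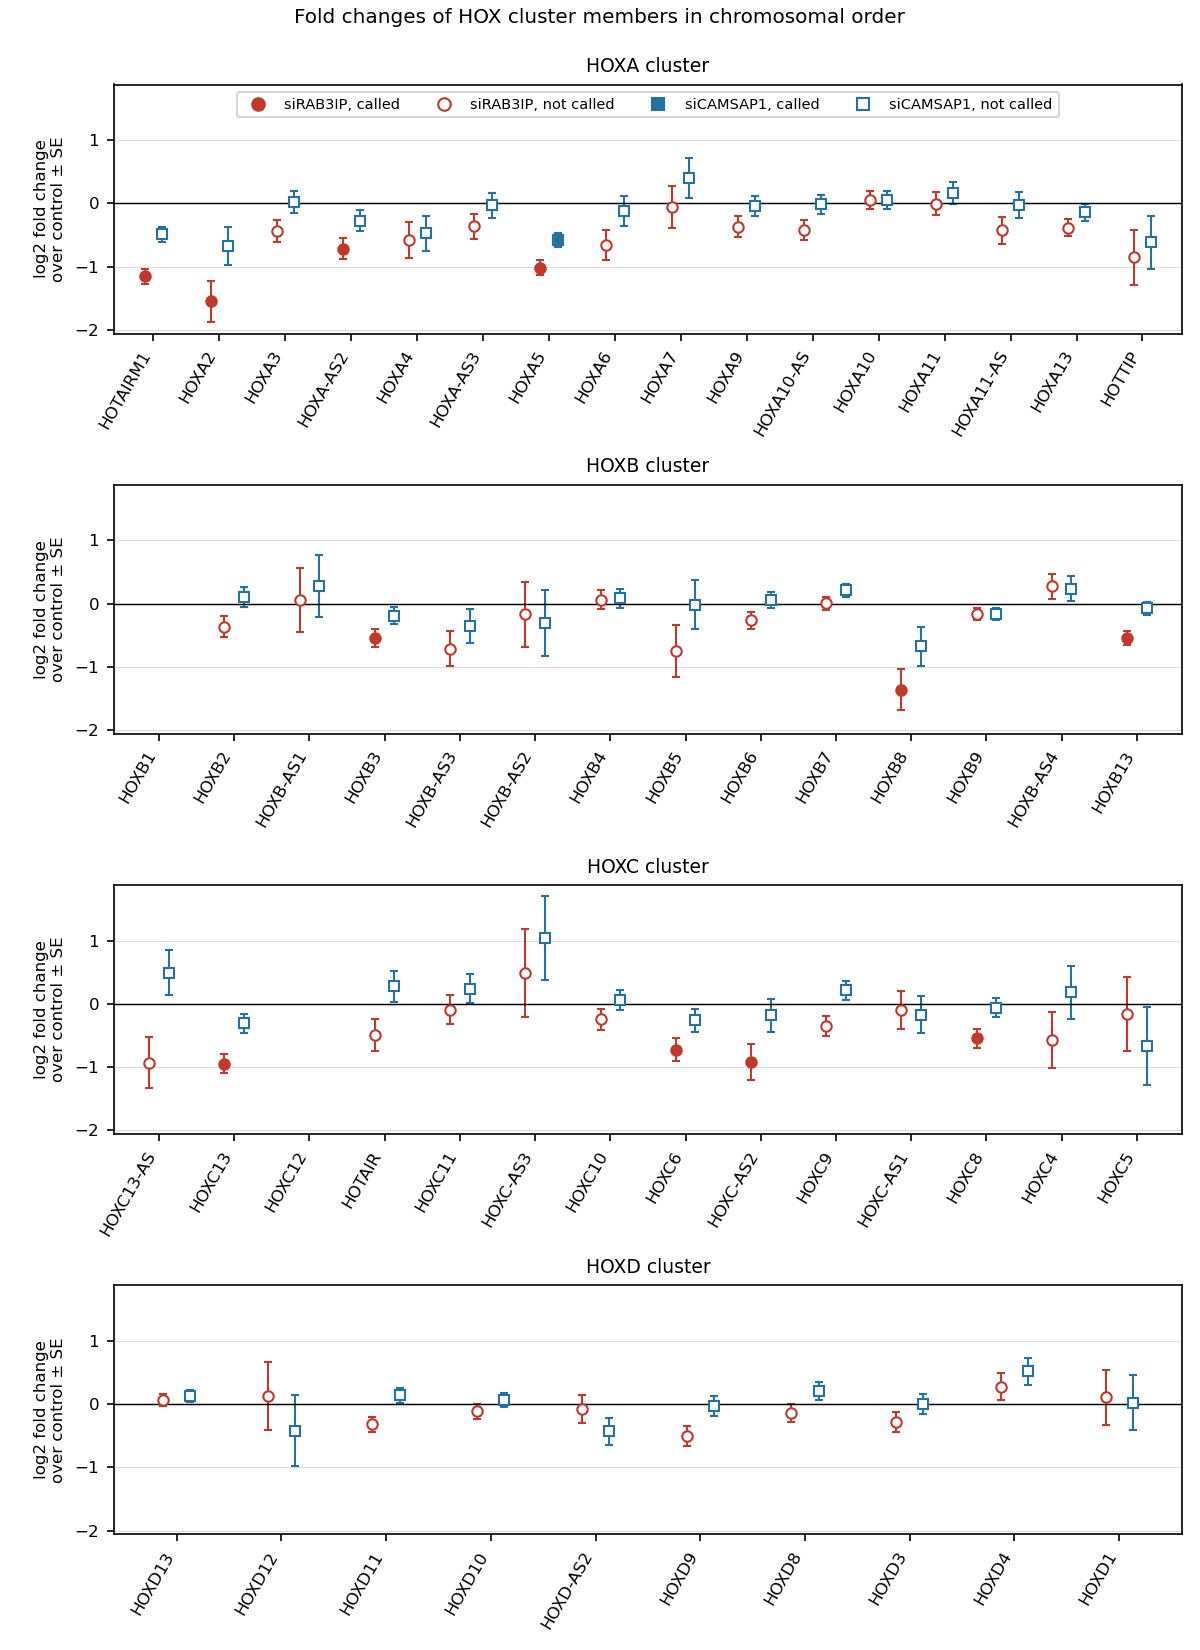
Log2 fold change over control with its standard error for the tested members shown, in chromosomal order, with siRAB3IP left (circles) and siCAMSAP1 right (squares) at each gene. Filled symbols are called at an adjusted p under 0.05 by edgeR. The 11 filled circles are all below 0 and lie in HOXA, HOXB and HOXC, and the single filled square is HOXA5. Both knockdowns share the control libraries.

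In the HOXB cluster, HOXB8, HOXB13 and HOXB3 fell, and the most abundant genes were not called. HOXB8, known for blocking myeloid differentiation in mice (hg19 chromosome 17, 46688739 to 46692478), had 0.476 and 0.505 CPM in siRAB3IP, 0.747 and 0.837 CPM in siCAMSAP1 and 1.28 and 1.26 CPM in control. These were 18 and 19 fragments in siRAB3IP and 48 and 52 in control libraries, with no overlap between the groups. Its log2 fold change was -1.37 ± 0.32 (edgeR, adjusted p 0.0154). Leaving out a library ended the call for siRAB3IP replicate 1 (adjusted p 0.0879), siRAB3IP replicate 2 (0.0766) and control replicate 2 (0.0510), and over 13 alternatives the adjusted p ranged from 0.00356 to 0.0879.

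HOXB13, a posterior gene and a partner of the androgen receptor in prostate (46802125 to 46806540), had 11.5 and 12.4 CPM in siRAB3IP, 16.7 and 16.6 CPM in siCAMSAP1 and 17.0 and 18.0 CPM in control. The siRAB3IP libraries were the lowest and the siCAMSAP1 libraries lay just under control. The log2 fold change in siRAB3IP was -0.55 ± 0.11 (edgeR, adjusted p 0.00550), and the adjusted p was 0.0555 without siRAB3IP replicate 1 and 7.65e-05 at its lowest over 15 alternatives. HOXB13 shares 20.05% of its exonic bases with PRAC2, a gene on the opposite strand that was too low to test. HOXB3, a hindbrain gene (46626232 to 46682274), had 8.19 and 7.66 CPM in siRAB3IP, 9.01 and 11.2 CPM in siCAMSAP1 and 10.7 and 12.4 CPM in control. Its log2 fold change was -0.54 ± 0.14 (edgeR, adjusted p 0.0255). Leaving out siRAB3IP replicate 1 (0.0813), siRAB3IP replicate 2 (0.148) or control replicate 2 (0.155) ended that call too, in a range of 0.000972 to 0.155 over 15 alternatives.

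HOXB7 had 16.9 and 18.3 CPM in siRAB3IP, 20.04 and 20.6 CPM in siCAMSAP1 and 18.2 and 16.9 CPM in control, and its log2 fold change in siRAB3IP was 0.01 ± 0.10. HOXB9 had 20.5 and 21.8 CPM in siRAB3IP, 20.2 and 22.1 CPM in siCAMSAP1 and 23.7 and 23.7 CPM in control, a log2 fold change of -0.16 ± 0.10. Neither was called, although both siRAB3IP libraries of HOXB9 lay below both control libraries. Antisense RNAs of the cluster were not called, among them HOXB-AS3 at -0.72 ± 0.27 (edgeR, adjusted p 0.112), which shares 30.1% of its exonic bases.

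In the HOXC cluster, HOXC13 fell with the lowest adjusted p. It lies near the start of the cluster by coordinate (hg19 chromosome 12, 54332535 to 54340328) and had 5.50 and 4.34 CPM in siRAB3IP, 7.47 and 7.81 CPM in siCAMSAP1 and 8.93 and 10.01 CPM in control. The groups did not overlap, and its log2 fold change was -0.95 ± 0.15 (edgeR, adjusted p 0.00176), with adjusted p between 2.46e-07 and 0.0247 over 15 alternatives. Its antisense partner HOXC13-AS, which shares 172 exonic bases with it, had 0.343 and 0.319 CPM in siRAB3IP, 1.004 and 0.787 CPM in siCAMSAP1 and 0.615 and 0.653 CPM in control. In siRAB3IP against control HOXC13-AS was not called, at -0.93 ± 0.40 (edgeR, adjusted p 0.160).

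HOXC6, HOXC8 and HOXC-AS2 were called lower nearer the threshold. HOXC6, a thoracic gene (54384408 to 54424607), had 3.25 and 3.19 CPM in siRAB3IP, 3.91 and 4.97 CPM in siCAMSAP1 and 5.85 and 4.81 CPM in control, a log2 fold change of -0.72 ± 0.19 (edgeR, adjusted p 0.0227). HOXC8, which gives motor neurons of the brachial cord their identity in mice (54402832 to 54407570), had 4.70 and 5.61 CPM in siRAB3IP, 7.11 and 7.31 CPM in siCAMSAP1 and 7.16 and 7.86 CPM in control, a log2 fold change of -0.54 ± 0.15 (edgeR, adjusted p 0.0331). HOXC-AS2, antisense to HOXC9 (54387594 to 54390569), had 0.845 and 0.931 CPM in siRAB3IP, 1.39 and 1.57 CPM in siCAMSAP1 and 1.92 and 1.45 CPM in control, a log2 fold change of -0.92 ± 0.28 (edgeR, adjusted p 0.0479).

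None of these 3 calls held over every left-out library. For HOXC6, leaving out siRAB3IP replicate 1 gave an adjusted p of 0.0946, siRAB3IP replicate 2 gave 0.114 and control replicate 1 gave 0.119, with 0.00181 its lowest over 14 alternatives. For HOXC8 the same steps gave 0.223 for siRAB3IP replicate 1, 0.0580 for siRAB3IP replicate 2 and 0.169 for control replicate 2, and DESeq2 gave 0.0502, with 0.00274 its lowest over 15. HOXC-AS2 passed in 5 of 14 alternatives only, its adjusted p ranged from 0.0170 to 0.243, and among the left-out libraries it passed without control replicate 2 alone. Its adjusted p was 0.201 and 0.147 without siRAB3IP replicates 1 and 2, 0.0559 and 0.0556 without siCAMSAP1 replicates 1 and 2, and 0.243 without control replicate 1.

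HOTAIR had 1.66 and 1.46 CPM in siRAB3IP, 2.16 and 3.17 CPM in siCAMSAP1 and 1.95 and 2.44 CPM in control. Its log2 fold change in siRAB3IP against control was -0.49 ± 0.26 and was not called (edgeR, adjusted p 0.251). HOXC9, which represses brachial HOX genes in thoracic motor neurons of mice, had 7.21 and 6.17 CPM in siRAB3IP, 11.3 and 8.53 CPM in siCAMSAP1 and 8.34 and 8.75 CPM in control, a log2 fold change of -0.35 ± 0.16 over control that was not called (edgeR, adjusted p 0.179).

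The HOXD cluster held HOXD13, the member with the highest mean over all libraries. None of its members was called against control by edgeR, DESeq2 or limma-voom. HOXD13 had 30.1 and 27.2 CPM in siRAB3IP, 31.2 and 28.4 CPM in siCAMSAP1 and 26.6 and 28.1 CPM in control, a log2 fold change of 0.06 ± 0.10 in siRAB3IP. HOXD10, a gene of the lumbar cord and the hindlimb, had 17.9 and 19.4 CPM in siRAB3IP, 19.4 and 22.9 CPM in siCAMSAP1 and 19.1 and 21.4 CPM in control, a log2 fold change of -0.12 ± 0.11. For both genes the siRAB3IP and control libraries overlapped. HOXD9 had 3.43 and 3.67 CPM in siRAB3IP, 4.89 and 5.02 CPM in siCAMSAP1 and 4.97 and 5.10 CPM in control, with its siRAB3IP libraries apart from the rest and an edgeR adjusted p of 0.0615 at -0.50 ± 0.16.

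For the paralogs numbered 13, the log2 fold changes over control were -0.95 ± 0.15 for HOXC13, -0.55 ± 0.11 for HOXB13, -0.38 ± 0.13 for HOXA13 and 0.06 ± 0.10 for HOXD13, of which the first pair was called. The paralogs numbered 8 gave -1.37 ± 0.32 for HOXB8, -0.54 ± 0.15 for HOXC8 and -0.15 ± 0.14 for HOXD8. The paralogs numbered 5 gave -1.02 ± 0.12 for HOXA5, -0.75 ± 0.42 for HOXB5 and -0.16 ± 0.59 for HOXC5, where the last 2 rest on low counts. Differences between paralogs were not tested.

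**Figure D4:**
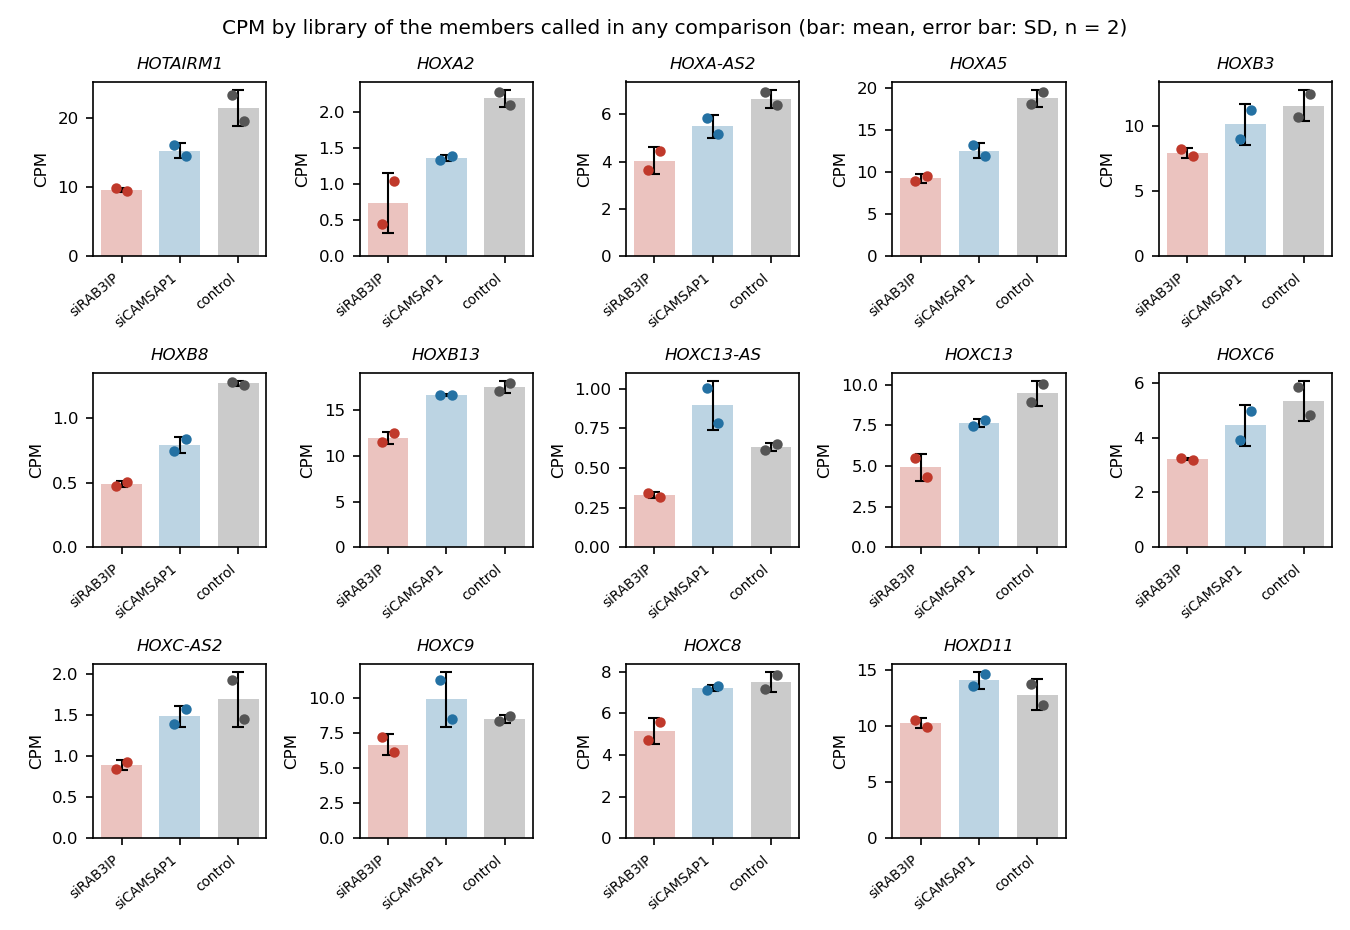
CPM in each library of the 14 members called in any comparison, with siRAB3IP, siCAMSAP1 and control from left to right and the axis from 0. Points are libraries, bars are means and error bars are SD over 2 libraries. In HOTAIRM1, HOXA5, HOXA2, HOXA-AS2, HOXB8, HOXB13 and HOXC13 the 3 groups are apart in that order from low to high.

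The siCAMSAP1 libraries were set against the same control libraries. By edgeR HOXA5 was the only member called, lower, and DESeq2 called HOXA5 and HOTAIRM1 lower and limma-voom 1 member. The edgeR count was 1 of 53, where 0.542% of all genes were called lower. No member was called higher by edgeR, DESeq2 or limma-voom, where edgeR called 0.519% of all genes higher, and at an unadjusted p under 0.05 there were 5 members lower and 1 higher, where 5.94% of all genes were lower and 6.18% higher. The log2 fold change of HOXA5 was -0.58 ± 0.11 (edgeR, adjusted p 0.0282). Its call was lost without siCAMSAP1 replicate 1 (adjusted p 0.0592), siCAMSAP1 replicate 2 (0.190) or control replicate 2 (0.140), in a range of 0.000243 to 0.190 over 15 alternatives. The median over the members was -0.02, against 0.00 over all genes, and 29 of 53 were below 0 (54.7%), against 49.8% of all genes.

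HOTAIRM1 came next, at -0.49 ± 0.12, and missed the threshold (edgeR, adjusted p 0.0707), with adjusted p between 0.000754 and 0.325 over 15 alternatives, of which 5 passed. In the authors' deposited table for siCAMSAP1, HOTAIRM1 is listed at -0.50 with an adjusted p of 0.0224 and HOXA5 at -0.58 with 0.0126. Both siCAMSAP1 libraries were below both control libraries for 14 members, where 20.9% of all genes were, and above both for 10, where 20.7% were. HOXD4, a cervical gene, was the 1 member with an unadjusted p under 0.05 on the high side, at 0.52 ± 0.21 (edgeR, adjusted p 0.338), with 80.5% of its exonic bases shared. In the authors' deposited table for siRAB3IP, 6 members are listed, all lower, namely HOTAIRM1 at -1.15, HOXA5 at -1.01, HOXA2 at -1.64, HOXC13 at -0.95, HOXA-AS2 at -0.71 and HOXB13 at -0.54.

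Set directly against each other, siRAB3IP was lower than siCAMSAP1 for 7 of 53 members, where 4.16% of all genes were called lower. No member was called higher by edgeR, DESeq2 or limma-voom, where edgeR called 5.14% of all genes higher, and at an unadjusted p under 0.05 the members stood at 21 lower and 0 higher, where 11.2% of all genes were lower and 12.1% higher. The 7 were HOTAIRM1 at -0.67 ± 0.12, HOXB13 at -0.48 ± 0.11, HOXC13 at -0.64 ± 0.16, HOXD11 at -0.46 ± 0.12, HOXA5 at -0.44 ± 0.12, HOXC13-AS at -1.42 ± 0.39 and HOXC9 at -0.57 ± 0.16. Their adjusted p by edgeR ran from 0.00442 for HOTAIRM1 to 0.0385 for HOXC9. The members' median was -0.35, against -0.01 over all genes, with both siRAB3IP libraries below both siCAMSAP1 libraries for 34 members, where 26.4% of all genes were, and above both for 3, where 25.8% were. The siRAB3IP libraries enter this comparison as well as that with control, so the 2 are not independent.

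Of these 7, HOTAIRM1 passed over all 15 alternatives other than the grouping by title, with adjusted p between 1.07e-05 and 0.0469. Leaving out 1 library brought the count of 7 down to 1 for siCAMSAP1 replicate 1, and to 2 for siCAMSAP1 replicate 2 and for either siRAB3IP replicate. The other 6 members kept the call when a control library, which is outside this comparison, was left out. HOXA5, HOXB13, HOXD11 and HOXC13-AS lost it whichever of the compared libraries was left out. Among the compared libraries, HOXC13 kept it only without siRAB3IP replicate 1, and HOXC9 only without siCAMSAP1 replicate 2. By limma-voom HOXC13-AS (adjusted p 0.0522) and HOXC9 (0.0531) were not called. Over the alternatives other than the grouping by title, the log2 fold change of these 6 nearest 0 was -0.34, for HOXC9. HOXD11, which with HOXA11 forms the forearm and the kidney in mice (hg19 chromosome 2, 176968944 to 176974722), had 10.6 and 9.92 CPM in siRAB3IP, against 13.5 and 14.6 CPM in siCAMSAP1, and 13.7 and 11.8 CPM in control. The siRAB3IP libraries were the lowest of the 6, and against control HOXD11 was not called (-0.32 ± 0.12, edgeR adjusted p 0.114). For HOXC13-AS and HOXC9 the siCAMSAP1 means were above those of control, though neither was called in siCAMSAP1 against control, at 0.50 ± 0.35 and 0.21 ± 0.15.

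The promoter window of HOXD11 is shown for the same motifs, at chr2:176107030-176107329 on the plus strand of GRCh38.p14.
HOXD11: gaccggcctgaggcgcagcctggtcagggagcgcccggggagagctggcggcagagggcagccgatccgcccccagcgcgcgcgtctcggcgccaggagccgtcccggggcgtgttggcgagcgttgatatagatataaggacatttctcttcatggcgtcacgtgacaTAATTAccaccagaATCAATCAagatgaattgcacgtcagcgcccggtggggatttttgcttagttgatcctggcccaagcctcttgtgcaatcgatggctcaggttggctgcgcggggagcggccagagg
Its capitals are 1 TAATTA core 81 bases before the start and 1 PBX and HOX site that starts 67 bases before it and is read on the reverse strand.

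Partners and regulators of HOX genes were counted in the same fit. Of 9 TALE cofactors, 4 were called lower in siRAB3IP against control and 0 higher, with a median of -0.41, where 5.38% of all genes were called lower and 6.58% higher. At an unadjusted p under 0.05, 6 were lower and 0 higher, where 12.3% of all genes were lower and 13.5% higher. DESeq2 and limma-voom each called 3 lower and 0 higher, and the shares of all genes called by these tools are not given. MEIS2 had 13.2 and 13.4 CPM in siRAB3IP, against 20.02 and 21.6 CPM in control (-0.65 ± 0.11, edgeR adjusted p 0.00198). MEIS1, which works with HOXA9 in leukaemia, had 16.8 and 18.7 CPM in siRAB3IP, against 25.3 and 29.4 CPM in control (-0.62 ± 0.11, edgeR adjusted p 0.00239). PBX2 had 33.7 and 35.0 CPM in siRAB3IP, against 38.8 and 47.1 CPM in control (-0.32 ± 0.10, edgeR adjusted p 0.0457). Against siCAMSAP1, siRAB3IP was higher for PBX3 (0.43 ± 0.10, edgeR adjusted p 0.0153) and lower for PBX2 (-0.34 ± 0.10, edgeR adjusted p 0.0444). In that comparison edgeR called 5.14% of all genes higher and 4.16% lower. There limma-voom called 1 of the 9 higher and 0 lower, and DESeq2 called 1 higher and 1 lower. In siCAMSAP1 against control edgeR called 0 of the 9, DESeq2 called 1 lower and limma-voom 0. At an unadjusted p under 0.05 edgeR gave 4 lower and 0 higher, where 5.94% of all genes were lower and 6.18% higher.

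Chromatin regulators of the clusters were counted beside the edgeR shares over all genes. In siRAB3IP against control 5.38% were called lower and 6.58% higher, and at an unadjusted p under 0.05 the shares were 12.3% and 13.5%. The same shares were 0.542%, 0.519%, 5.94% and 6.18% in siCAMSAP1 against control. In siRAB3IP against siCAMSAP1 they were 4.16%, 5.14%, 11.2% and 12.1%. Of 21 Polycomb genes tested, 1 was called lower in siRAB3IP against control, the H3K27me3 reader CBX2 at -0.44 ± 0.09 (edgeR, adjusted p 0.00665), and against siCAMSAP1 CBX2 and CBX8, another reader, were called lower, at -0.40 ± 0.09 and -0.40 ± 0.10. In that comparison DESeq2 called 2 Polycomb genes lower and 1 higher and limma-voom 2 lower, and at an unadjusted p under 0.05 edgeR gave 4 lower and 5 higher. Polycomb calls in siCAMSAP1 against control numbered 0 by edgeR, DESeq2 and limma-voom, with 1 gene lower and 0 higher at an unadjusted p under 0.05. Of 17 Trithorax, MLL complex and architecture genes tested, 0 were called in any comparison by edgeR, DESeq2 or limma-voom, with 3 lower at an unadjusted p under 0.05 in siRAB3IP against control, 1 higher in siCAMSAP1 against control and 0 in siRAB3IP against siCAMSAP1. Among 16 retinoic acid and CDX genes tested, siRAB3IP was lower than control for 3, ALDH1A2, which makes retinoic acid, at -0.82 ± 0.22, the receptor RARG at -0.61 ± 0.15 and the retinaldehyde reductase DHRS3 at -0.31 ± 0.09, beside the same 5.38% of all genes called lower. DHRS3 was also the 1 gene of that list called in siCAMSAP1 against control, at -0.62 ± 0.09, lower, where 0.542% of all genes were. Median log2 fold changes in siRAB3IP were -0.02 for the Polycomb, 0.05 for the Trithorax and -0.19 for the retinoic acid list, against -0.01 over all genes.

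Genes beside the clusters gave 1 higher and 3 lower of 17 tested in siRAB3IP against control, a list that also counts HOTAIRM1. Without HOTAIRM1 the count was 1 higher and 2 lower of 16, beside 6.58% of all genes called higher and 5.38% lower. HIBADH, an enzyme of valine breakdown beyond the HOXA13 end of HOXA, had 35.3 and 38.1 CPM in siRAB3IP, against 59.3 and 57.8 CPM in control (-0.67 ± 0.08, edgeR adjusted p 0.000318). SKAP2, an adaptor protein beyond the opposite end, had 65.3 and 78.0 CPM in siRAB3IP, against 89.6 and 99.7 CPM in control (-0.40 ± 0.10, edgeR adjusted p 0.0163), and SKAP2 was also lower in siCAMSAP1 than in control (-0.52 ± 0.10). LNPK, a shaper of the endoplasmic reticulum beside HOXD, had 74.3 and 74.7 CPM in siRAB3IP, against 63.1 and 58.0 CPM in control (0.30 ± 0.09, edgeR adjusted p 0.0401). The other 13 tested genes were not called, among them TAX1BP1 (0.01 ± 0.08) and JAZF1 (-0.16 ± 0.12), also beside HOXA, and MTX2 (-0.09 ± 0.09), also beside HOXD.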

How the data were processed

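Poly(A) RNA-seq libraries of HEK293 cells were made with a TruSeq kit, per the labels' protocols. The deposited counts are fragments per gene counted by the authors with featureCounts 1.6.0, per the file headers, with primary alignments, both ends mapped and no strand setting. STAR, DESeq2 and hg19 are named in the submitters' processing notes, without versions in the sources used here. The deposited signal columns are counts divided by 1 factor per library, and the deposited log2 fold changes and p-value columns come from the authors' comparisons. Gene lengths were taken from the deposited counts file. The deposited tables list genes past the authors' threshold. Each of 8 normalized columns equalled 1 count column up to a factor (tolerance 1e-09 in log2 ratio), which gave the group names.

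Groups follow the table names, and replicate numbers follow the library identifiers. edgeR 4.0.16 in R 4.3.3 (TMM, default filter on low counts, robust quasi-likelihood test, 1 model over 3 groups, 3 residual degrees of freedom) tested 22331 genes, with Benjamini-Hochberg adjustment over these genes and a threshold of 0.05. SE is the absolute log2 fold change over the square root of F. The fit was tested on simulated data. A floor of 3 fragments stood for 0.0757 to 0.0803 CPM, for counting error only. Symbols came from a gene name table and GENCODE. In it, KMT2B had 0 fragments in all libraries and PECAM1 only a patch sequence, and 2 HEK293 markers had no match. Whether the 0 of KMT2B comes from the match of its symbol was not tested, so it is not read as absence of expression.

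Members, gene lists and tests were chosen with earlier results of these data known. Named genes were the members called in any comparison, the 2 most abundant per cluster, HOTAIRM1, HOTAIR and HOTTIP, and up to 4 called genes per list. Other genes named (HOXA10, HOXA11, HOXA13, HOXB5, HOXB-AS3, HOXB-AS4, HOXC5, HOXC-AS3, HOXC12, HOXB1, HOXD4, HOXD8, HOXD9, HOXA10-AS, the markers and the host genes) were chosen after their values were seen. The alternatives changed the scaling (RLE or upper quartile), the filter (none, or a mean of at least 5 CPM), the tool (DESeq2 1.42.0 or limma-voom of limma 3.58.1) and the libraries (only those compared, or each library left out), grouped by sample titles, added a replicate block and, added after seeing the data, no robust estimation. Single results of 2 genes are not reported here. Python 3.11.15 drew tables and figures.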

Additional observations from a re-analysis of the deposited data

How the results depend on the processing

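Under the grouping by sample titles, 0 members and 0 genes were called in each comparison, and the groups then hold other libraries. By title, the circRAB3IP knockdown group holds siCAMSAP1 replicate 1 and control replicate 2, and no siRAB3IP library. The control group by title holds control replicate 1 and siRAB3IP replicate 1. Among the member results called under the table names, the log2 fold changes of 17 changed sign. Results not called under the table names are not counted in these 17. For siRAB3IP against control they were HOTAIRM1 at 0.11, HOXA5 0.28, HOXC13 0.28, HOXB13 0.28 and HOXA2 0.34. The same comparison held HOXA-AS2 at 0.21, HOXB8 0.19, HOXB3 0.18, HOXC8 0.34 and HOXC-AS2 0.038. For siRAB3IP against siCAMSAP1 they were HOTAIRM1 at 0.58, HOXA5 0.60, HOXC13 0.52, HOXB13 0.26, HOXD11 0.049, HOXC13-AS 0.57 and HOXC9 0.45. For siRAB3IP against control, the 11 members called became 7 with a mean of at least 5 CPM, where fewer genes are tested, and 3 to 10 when a library was left out, while the 2671 genes called became 1160 to 2675. For siCAMSAP1 against control, the 1 member called became 2 with upper-quartile scaling, no filter or DESeq2, and 0 to 1 when a library was left out. The 237 genes called there became 676 with no filter, 152 with the compared groups alone, 366 with DESeq2 and 86 to 425 when a library was left out. For siRAB3IP against siCAMSAP1, the 7 members called became 1 to 8 and the 2076 genes 719 to 2652 when a library was left out. The cause of these changes was not tested, beyond the fewer libraries. Replicate numbers are shared only as numbers, and with a replicate block the 3 comparisons gave 20, 3 and 17 members and 5590, 1643 and 4829 genes; by cluster, siRAB3IP against control then gave 9 HOXA, 4 HOXB, 5 HOXC and 2 HOXD members lower, HOXD11 among them at an adjusted p of 0.0281, in a range of 0.0281 to 0.465 over 15 alternatives. Deviations of equally numbered libraries correlated at 0.11 to 0.15 over 22331 genes. In no alternative was a member called higher. Other scalings moved the median of all genes by -0.03 to 0.01 in log2. Groups of 2 libraries and low counts (HOXB8, HOXC13-AS, HOTTIP) limit the precision.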
